A study of Mus musculus with 3 samples.

Results

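The CCCGGG sites of mouse chromosome 19 were described in ID8, an ovarian cancer line from C57BL/6 mice whose cells the labels give as female ovarian surface epithelium. All 3 libraries came from untreated cells grown in RPMI with serum and gentamicin, so there is 1 group (n = 3) and no control. Chromosome 19, the shortest mouse autosome, held 4490 of the 173449 sites listed in each library. A site was called covered when it had at least 10 reads in each of the 3 libraries, and its methylation level is the methylated share of its reads, averaged over the libraries. Of the 4490 sites, 910 (20.3%) were covered, against 22728 of the 160406 sites (14.2%) on the other 18 autosomes. Positions are those of the deposited tables, on build mm9. The members were chosen by chromosome, and the rule that set them out named their depth and their levels, so both are given as descriptions.

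Methylation was read by digital restriction enzyme analysis of methylation (DREAM). SmaI cuts CCCGGG when its CpG is unmethylated, XmaI then cuts the methylated copies, and the differing fragment ends tell the states apart at sequencing. Every read therefore starts at a listed site, and the fragment behind it runs to the next site on that side. Most CpGs of mammalian DNA are methylated, while dense CpGs, the CpG islands that often hold gene starts, are mostly unmethylated. CCCGGG is rich in C and G, so crowded sites tend to lie in such islands and lone sites outside them.

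Chromosome 19 had 400084, 473059 and 536364 reads in replicates 1, 2 and 3, of 7689526, 9190335 and 10361138 in all. These made up 5.27%, 5.22% and 5.25% of the autosomal reads, while its sites were 2.72% of the autosomal sites. Covered sites held 97.9%, 98.0% and 98.1% of the chromosome's reads. At the limit, 37 sites had exactly 10 reads in their shallowest library, with a median of 38 reads over the 3 libraries and a median level of 96.3%. Another 39 sites had 9 reads there and were left out, with a median of 35 reads and a median level of 78.9%. Levels on both sides of the limit ran from 0% to 100%.

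Promoter sequences show how the reads fell. RefSeq promoters of chromosome 19 (250 bases before the gene start, build GRCm38.p6) are of another build than the tables, so they were matched to the listed sites by the spacing of CCCGGG and the order of the genes. Of 1044 promoter sequences (250 bases before to 50 after the start), 156 held CCCGGG on either strand (14.9%, against 13.5% of all 32851), and 34 held at least 2 copies. All 34 spacings were found among the listed sites. The spacing occurred once on the chromosome for 10 of them, which lay in the order of their genes, and 19 more were placed between these by order. The 5 below were chosen after their values were seen, as promoters where close sites differ in reads or in level. Each is written 5′ to 3′ along its gene, with CCCGGG in capitals.

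Map4k2 (chr19:6340910-6341159, GRCm38.p6, plus strand): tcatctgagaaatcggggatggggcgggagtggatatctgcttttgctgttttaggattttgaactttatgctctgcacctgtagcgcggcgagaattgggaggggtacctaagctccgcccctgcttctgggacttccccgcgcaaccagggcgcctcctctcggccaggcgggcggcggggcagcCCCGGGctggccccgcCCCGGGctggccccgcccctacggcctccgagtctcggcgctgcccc
Fads3 (chr19:10041298-10041547, GRCm38.p6, plus strand): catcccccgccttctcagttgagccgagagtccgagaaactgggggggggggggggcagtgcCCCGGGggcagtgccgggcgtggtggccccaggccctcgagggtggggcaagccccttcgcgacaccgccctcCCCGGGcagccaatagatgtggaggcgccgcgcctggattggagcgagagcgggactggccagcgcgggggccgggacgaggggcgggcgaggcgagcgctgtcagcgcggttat
Vldlr (chr19:27216770-27217019, GRCm38.p6, plus strand): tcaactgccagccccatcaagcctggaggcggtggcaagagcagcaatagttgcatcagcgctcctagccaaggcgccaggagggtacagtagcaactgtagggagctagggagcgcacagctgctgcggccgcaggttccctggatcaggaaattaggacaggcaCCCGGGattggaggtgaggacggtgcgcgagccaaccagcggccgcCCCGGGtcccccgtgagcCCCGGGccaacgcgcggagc
Crtac1 (chr19:42431495-42431744, GRCm38.p6, minus strand): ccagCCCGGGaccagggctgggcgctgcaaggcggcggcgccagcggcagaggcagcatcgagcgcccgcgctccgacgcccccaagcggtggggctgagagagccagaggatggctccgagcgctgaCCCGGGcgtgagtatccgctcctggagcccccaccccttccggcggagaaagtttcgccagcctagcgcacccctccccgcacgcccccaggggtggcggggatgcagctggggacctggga
Asrgl1 (chr19:9135567-9135816, GRCm38.p6, minus strand): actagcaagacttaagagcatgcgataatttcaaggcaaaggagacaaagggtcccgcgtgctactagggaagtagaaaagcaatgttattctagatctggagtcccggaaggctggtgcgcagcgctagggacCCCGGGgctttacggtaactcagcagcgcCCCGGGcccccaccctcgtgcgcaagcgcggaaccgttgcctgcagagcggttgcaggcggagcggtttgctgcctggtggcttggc

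The promoter of Map4k2, a kinase of the MAP kinase cascades, holds 2 sites 16 bp apart. The site at 6341116 faced another listed site 411 bp away and had 1327, 1387 and 1522 reads in replicates 1, 2 and 3. The site at 6341100 faced one 1252 bp away and had 0 reads in each library, where a count of 0 allows up to 3. In the promoter of Fads3, a member of the fatty acid desaturase family, the sites lie 73 bp apart. The site at 10115926, with a neighbour 329 bp away, had 984, 1136 and 1204 reads, and the site at 10115853, with the next one 8918 bp away, had 0, 2 and 1. Both deeply read sites were unmethylated, at 0.138% ± 0.132 (SD, n = 3) for Map4k2 and 0.172% ± 0.216 for Fads3. So close sites of the same promoter differed by 0 against 4236 and by 3 against 3324 reads over the 3 libraries, and the deeply read one was that with the shorter fragment to its free side.

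Most such pairs on the chromosome showed the same. Of 25 pairs of sites within 100 bp of each other, with the next site over 200 to 500 bp away on one side and over 1 kb away on the other, the site facing the short side had more reads in 21. The medians were 2626 and 6 reads over the 3 libraries. In 3 pairs the site facing the short side had fewer reads, and in 1 neither site had any.

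The promoters also show the 3 kinds of level. In Vldlr, which encodes the very low density lipoprotein receptor, the covered site at 27291493 was methylated in 73 of 73, 143 of 143 and 182 of 183 reads. In Crtac1, which encodes a cartilage matrix protein, the site at 42506104 was methylated in 893 of 924, 1024 of 1050 and 1100 of 1158 reads, a level of 96.4% ± 1.29 (SD, n = 3). Its neighbour at 42506228 was at 96.6% ± 1.04. Both lie in the printed promoter. The other placed promoter of Crtac1 held the sites at 42506296 and 42506394, with 1 and 12 reads over the 3 libraries, and neither was covered. In Asrgl1, which encodes an asparaginase-like enzyme, the site at 9210141 was at 45.9% ± 1.0, with 45.5%, 45.1% and 47.0% in the 3 libraries. The site 29 bp away, at 9210170, was at 86.9% ± 8.21 over 162 reads.

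Over the 26 genes with a placed promoter, 25 of 56 listed sites were covered. Of these 25, 19 were low (under 10%), 5 were high (70% or more) and 1, that of Asrgl1 above, was partial. Over all covered sites of the chromosome, 412 of 910 were low (45.3%), 375 high (41.2%) and 123 partial (13.5%). These are not a like set, because each placed promoter held at least 2 sites, so all its sites had a close neighbour. Among covered sites of the chromosome with a neighbour within 500 bp, 346 of 593 were low (58.3%) and 163 high (27.5%). Whether promoter sites differ from other crowded sites was not tested. Low promoters included that of Rfx3, a transcription factor of cilia genes, at 0.143% ± 0.124 (SD, n = 3), and that of Tbc1d12 at 0.231% ± 0.0543. The 2 sites at the start of Grk5, a kinase of G protein-coupled receptors, were at 1.36% ± 1.37 and 1.76% ± 1.07. No site was covered in the promoters of Loxl4, a lysyl oxidase family member, and Ldb1, a cofactor of LIM-domain transcription factors.

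Most listed sites lay at distances where few sites reached the coverage limit, and the others carried nearly all reads. On chromosome 19, 2893 of the 4490 sites (64.4%) had no other listed site within 1 kb. They took 2.22% of its reads, had a median of 7 reads over the 3 libraries, and 130 of them (4.49%) were covered. The 695 sites with their nearest neighbour over 100 to 500 bp away (15.5% of the sites) took 83.0% of the reads, and 482 of them (69.4%) were covered. Coverage peaked where the nearest site was over 300 to 400 bp away, at 114 of 138 sites (82.6%) with a median of 3377.5 reads. Very close sites were again rarely covered, at 111 of 563 (19.7%) with a neighbour within 100 bp. Among these, 40 of 63 (63.5%) were covered when the site on the other side lay over 200 to 500 bp away. When it lay over 1 kb away, 14 of 268 (5.22%) were covered.

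**Figure D1:**
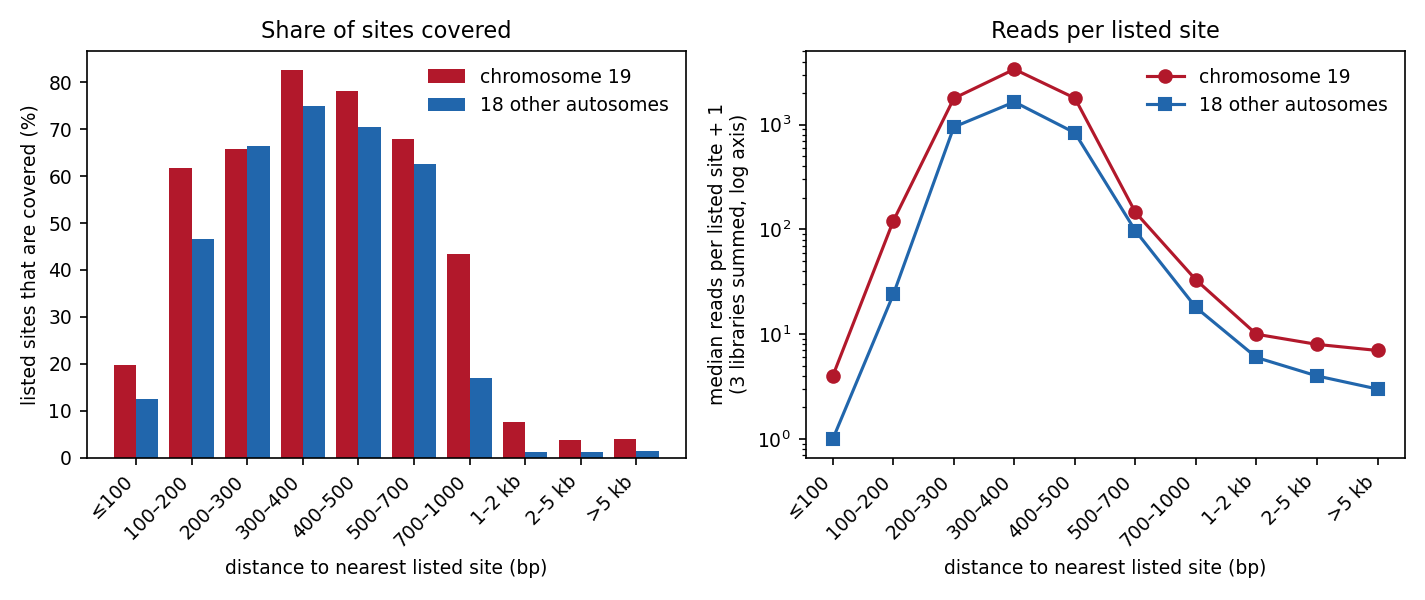
Left, the share of listed sites covered (%), and right, the median reads per listed site plus 1 (3 libraries summed, log axis), by distance to the nearest listed site in bp. Red is chromosome 19 and blue the other 18 autosomes; reads peak at over 300 to 400 bp in both, and chromosome 19 has the higher median in every class.

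The spacing of the sites on chromosome 19 was close to that of the other autosomes. Sites over 1 kb from any other were 64.4% of the listed sites there and 63.9% elsewhere. At the coverage rates of the other autosomes for the same distances to both neighbours, 673 sites (15.0%) would be covered, against the 910 counted (20.3% of the 4488 sites with a neighbour on each side). The gap was relatively widest at the rarely covered distances. At over 700 bp to 1 kb, 43.5% of sites were covered on chromosome 19 and 16.9% elsewhere. At over 1 to 2 kb the shares were 7.63% and 1.25%, and at over 100 to 200 bp 61.7% and 46.6%. At over 200 to 300 bp they were 65.8% and 66.5%, so the share was not higher on chromosome 19. At over 400 to 500 bp, where more sites were covered, they were 78.2% and 70.5%. At over 300 to 400 bp the share was also higher on chromosome 19 than elsewhere. Sites without a single read were 20.6% of the listed sites on chromosome 19 and 32.0% elsewhere.

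Per covered site, chromosome 19 looked shallow. Its covered sites had a median of 412.5 reads over the 3 libraries, the lowest of the 19 autosomes, whose medians otherwise ran from 483 (chromosome 16) to 683 (chromosome 11). In single libraries the medians were 113, 135.5 and 170.5 reads, against 160, 189 and 215 on the other autosomes. On a log2 scale this unmatched difference was -0.44 ± 0.0909 (SD, n = 3), below 0 in each library. It turned with the coverage limit, to 0.30 with at least 20 reads in every library and 0.84 with at least 50.

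Set against sites with like distances to both neighbours, chromosome 19 was the deepest autosome. The matched log2 ratio was 0.63 ± 0.0288 (SD, n = 3) over 903 sites, a factor of 1.55, with 0.60, 0.63 and 0.66 in the 3 libraries. Next came chromosome 15 with 0.47 ± 0.00527 and chromosome 11 with 0.29 ± 0.012, and the lowest was chromosome 14 with -0.21. The change of sign goes with the mix of covered sites. Isolated sites, with no other listed site within 500 bp, were 34.8% of the covered sites on chromosome 19, the highest share of any autosome, and 20.5% to 29.3% on the others. They had a median of 76 reads, against 1615 at the remaining covered sites of the chromosome. With the distance classes weighted as on the other autosomes, the median of chromosome 19 rose from 412.5 to 686 reads, above the 570 of the others.

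Chromosomes 19, 15 and 11 also led, in this order, at sites taken without a coverage limit, while the order of the others changed. At the 429 sites over 200 to 500 bp from the nearest, covered or not, the median was 2240 reads against 1035 on the other autosomes, a log2 ratio of 1.10 ± 0.0614 (SD, n = 3). Chromosome 15 had 1870 reads there and chromosome 12, the lowest, 574. At the 2893 sites over 1 kb from any other, mean reads were compared with each site capped at the 99th percentile of the other autosomes (13, 18 and 16 reads in replicates 1, 2 and 3). The capped log2 ratio was 0.92 ± 0.0113, the highest of the autosomes. Without a cap it was 0.45 ± 0.0153 (10.8 against 7.92 reads per site), and chromosome 11 was higher, where 1 such site, at a level of 0.0664%, held 240822 reads. Without a cap and without that site it was 0.96 ± 0.0168, and chromosome 19 was first again.

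**Figure D2:**
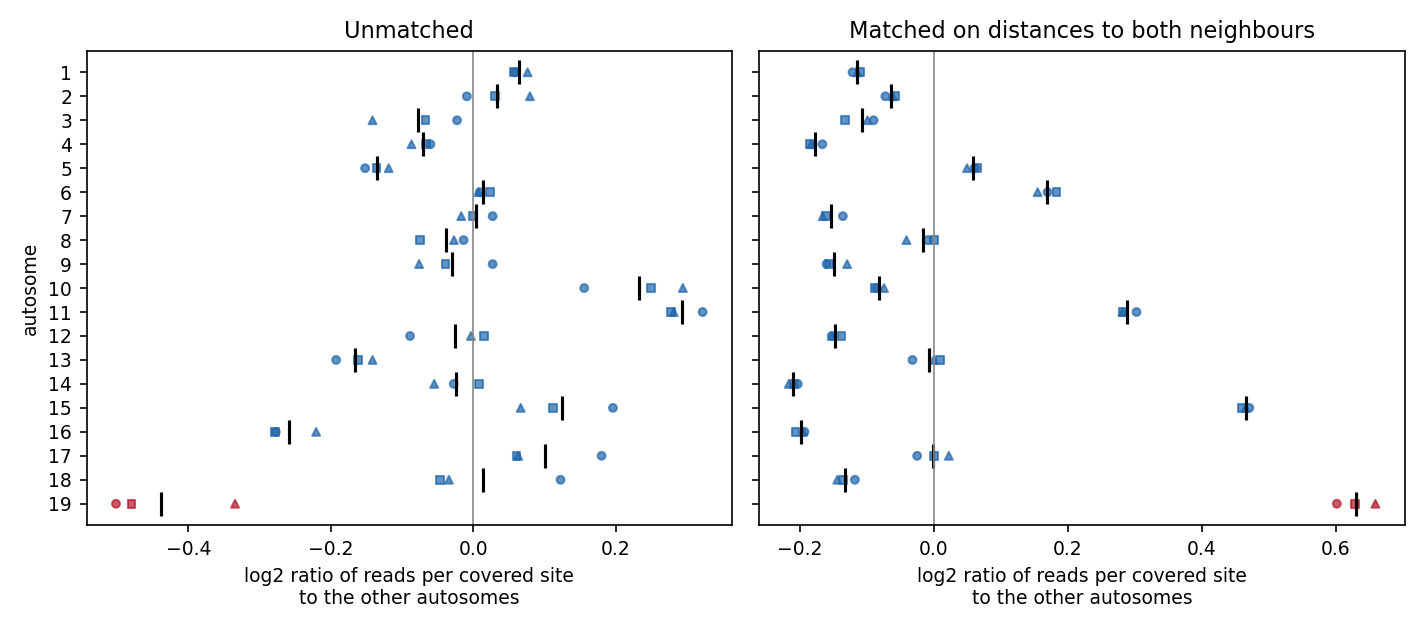
The log2 ratio of reads per covered site to the other autosomes, for each of the 19 autosomes, unmatched (left) and matched on the distances to both neighbouring sites (right). Circles, squares and triangles are replicates 1, 2 and 3 and bars their means; chromosome 19, in red, is lowest at -0.44 on the left and highest at 0.63 on the right.

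Depth along the chromosome was followed in 13 windows of 5 Mb, holding 80 to 630 listed sites. Unmatched, the windows ran from -1.99 to 0.99 on the log2 scale, with 8 below 0 and 5 above. The lowest were 55 to 60 Mb (-1.99 ± 0.216, SD, n = 3) and 5 to 10 Mb (-1.80 ± 0.0532), with medians of 132 and 156 reads per covered site. The highest was 40 to 45 Mb with 0.99 ± 0.0999 and a median of 1049 reads. The 2 shallow windows were among those with the most isolated sites, which made up 52.1% and 39.8% of their covered sites, while in 40 to 45 Mb they were 19.7%.

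After matching, all 13 windows lay above 0 in each of the 3 libraries, between 0.28 and 1.37. The window from 5 to 10 Mb rose to 0.41 ± 0.0418 (SD, n = 3) and that from 55 to 60 Mb to 0.29 ± 0.0373. The window from 10 to 15 Mb was at 0.89 ± 0.0211, that from 0 to 5 Mb at 0.82 ± 0.0703, and those from 25 to 30 and from 40 to 45 Mb both at 0.79. The window from 45 to 50 Mb, with 148 covered sites, was at 0.75 ± 0.0351 and that from 50 to 55 Mb at 0.64. The remaining windows, from 15 to 25 Mb and from 30 to 40 Mb, lay between 0.28 and 0.38. The lowest, 20 to 25 Mb, gave 0.13, 0.25 and 0.45 in the 3 libraries, so its place among its neighbours is within their spread. Leaving out a library moved 3 of these windows by over 1.5 times. The window from 15 Mb fell to 0.18 without replicate 1 and 0.19 without replicate 2, that from 20 Mb rose to 0.42 without replicate 1, and that from 30 Mb fell to 0.25 without replicate 2.

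The highest value, 1.37 ± 0.0384 (SD, n = 3) at 60 to 65 Mb, rests on 17 sites at the end of the chromosome. It was 0.76 without replicate 3, which admits more sites, and 0.65 with at least 50 reads in every library. Another count took all listed sites, covered or not, at distances where at least 50% of autosomal sites were covered. It added 1 read to each site and left out covered sites at other distances. This turned the value to -1.77. By that count the windows from 15, 20 and 30 Mb turned as well, to -1.31, -0.56 and -4.49. At 30 to 35 Mb, 9 of the 19 sites over 200 to 500 bp from the nearest had no read, 5 were covered and the median was 1 read. Elsewhere on the chromosome 0 to 5 such sites per window had no read.

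The 424 windows of the other autosomes with at least 10 covered sites ran from -1.37 to 0.73, with a median of -0.05, and 175 of them (41.3%) were above 0. Of the 10 highest autosomal windows, 7 were among the 13 of chromosome 19. The 20 highest also held 7 of them, and its remaining windows ranked from 25 to 50. Sites over 1 kb from any other gave a second profile that uses no coverage limit. By their mean reads, capped as above, all 13 windows were above 0, from 0.42 (at both 15 to 20 and 30 to 35 Mb) to 1.21 (45 to 50 Mb). The windows of 5 to 10 Mb and 55 to 60 Mb were at 1.08 ± 0.0276 and 1.10 ± 0.0326 there, near the top, although unmatched they were the shallowest. Without a cap 11 of the 13 windows were above 0, with a lowest value of -0.20, and without the deepest site of chromosome 11 all 13 were, from 0.31.

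**Figure D3:**
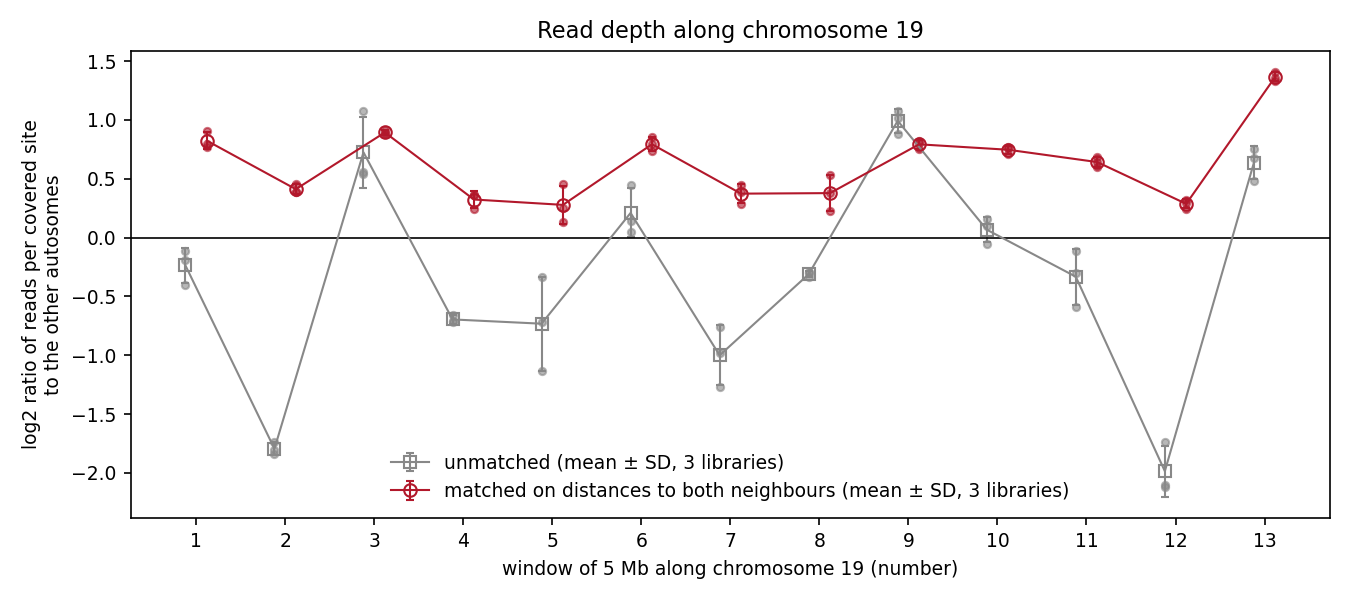
The log2 ratio of reads per covered site to the other autosomes (y axis) in the 13 windows of 5 Mb along chromosome 19 (x axis, numbered from the first). Grey squares are unmatched and red circles matched values (mean ± SD, with the 3 libraries as dots); matched values are all above 0, and windows 2 and 12 fall to -1.80 and -1.99 when unmatched.

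Covered sites of chromosome 19 averaged a level of 44.4% ± 0.187 (SD, n = 3), against 43.1% ± 0.163 on the other autosomes. The difference of 1.27 points ± 0.0827 was positive in 3 of 3 libraries. An exact sign-flip test over libraries (two-sided, p = 0.25) cannot decide here, because this is the smallest p that 3 libraries allow. The mean level of chromosome 19 ranked 7 from the highest among the 19 autosomes. This small difference joined opposite ones. Sites with a neighbour within 500 bp were less methylated on chromosome 19, at 31.2% ± 0.0339 against 37.6% ± 0.135 elsewhere. Isolated sites were more methylated, at 69.1% ± 0.476 against 60.5% ± 0.252. With at least 20 or 50 reads in every library, the overall difference turned to -2.18 and -5.34 points.

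Within the isolated sites the direction changed again with distance. The 187 covered sites whose nearest neighbour was over 500 bp to 1 kb away averaged 56.0% ± 0.310 (SD, n = 3), against 49.1% ± 0.247 on the other autosomes. The 130 sites over 1 kb from any other averaged 88.0% ± 1.02, against 95.6% ± 0.273 elsewhere. The isolated class of chromosome 19 thus had the higher level at over 500 bp to 1 kb. It also held a larger share of sites over 1 kb away, 130 of 317, against 1349 of 5500 on the other autosomes. How much each contributed to its high level was not tested.

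The lower level beyond 1 kb came from sites just past that distance. Of the 130 sites, 116 were high, 4 partial and 10 low. All 10 low sites had their nearest neighbour 1006 to 1257 bp away and held 35 to 52 reads over the 3 libraries. The site at 47389025, with its neighbour 1029 bp away, was methylated in 0 of 18, 0 of 18 and 0 of 16 reads, and that neighbour, at 47390054, in 0 of 10, 1 of 19 and 0 of 12. At over 1 to 1.3 kb, 24 of 167 listed sites were covered on chromosome 19 (14.4%) with a level of 52.1% ± 1.01 (SD, n = 3). On the other autosomes 88 of 5071 (1.74%) were covered there, with a level of 77.4% ± 0.434. Beyond 2 kb, 94 of the 95 covered sites of chromosome 19 were high, and their mean of 96.6% ± 1.0 was close to the 97.2% ± 0.311 of the others. The difference beyond 1 kb was -0.995 points with at least 20 reads in every library (35 sites of chromosome 19) and turned to 6.53 with at least 50, where only 5 sites were left.

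By window, isolated sites averaged between 58.9% and 85.8% in the 11 windows with at least 10 of them. The window from 5 to 10 Mb was lowest, at 58.9% ± 0.211 (SD, n = 3) over 68 sites, with 39 high and 21 low. That from 45 to 50 Mb followed at 59.9% ± 1.56 over 53 sites, with 30 high and 16 low. The highest were 35 to 40 Mb (85.8% ± 1.14, 15 sites), 50 to 55 Mb (84.9% ± 1.19, 11 sites) and 0 to 5 Mb (83.8% ± 0.291, 19 sites). The 2 lowest windows held the most isolated sites and the highest shares of listed isolated sites that were covered, 15.9% and 14.5%, against 7.01% at 35 to 40 Mb. The window from 55 to 60 Mb had a share of 13.4% and a level of 76.1% ± 1.15 over 49 sites. Whether the share covered bears on the level of a window was not tested.

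Sites with a neighbour over 500 bp to 1 kb away differed in level among the 3 windows with the most isolated sites. These were at 40.6% ± 0.452 (SD, n = 3) in 41 sites at 5 to 10 Mb, at 55.1% ± 1.11 in 34 sites at 45 to 50 Mb and at 69.9% ± 0.566 in 34 sites at 55 to 60 Mb. Sites over 1 kb from any other were at 86.1% or more in 12 of the 13 windows. The exception was 45 to 50 Mb, with 68.6% ± 2.47 over 19 sites, 5 of them low. Of the other 5 low sites beyond 1 kb, 3 lay at 5 to 10 Mb. How much either class of distance, or their mix, contributed to the spread between windows was not tested.

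**Figure D4:**
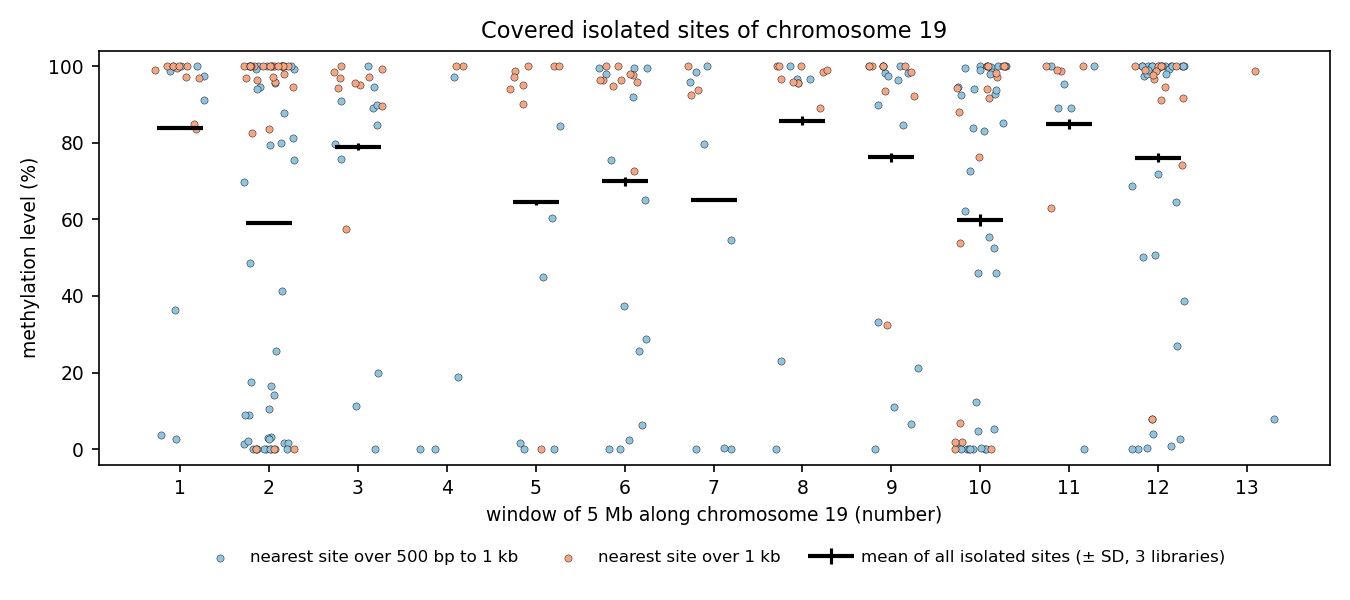
Methylation level (%) of each of the 317 covered isolated sites of chromosome 19 by window of 5 Mb (numbered from the first), blue with the nearest site over 500 bp to 1 kb away and orange over 1 kb. Black bars are window means (± SD over 3 libraries, windows with at least 10 sites); windows 2 and 10 have the lowest means, 58.9% and 59.9%, and hold 8 of the 10 low orange sites.

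The methylated share of reads at far sites, those over 1 kb from any other, differed with their coverage. Here the reads of all sites in a class were pooled, so deep sites weigh more than in a mean of levels. At sites of chromosome 19 over 1 kb from any other that were not covered but had reads (2174 sites), 64.7% ± 1.86 of the reads were methylated (SD, n = 3). At the 130 covered ones it was 91.7% ± 1.46, where the mean of their levels was 88.0%. The share rose with the reads at a site. It was 58.0% ± 1.65 at 1236 sites with 1 to 9 reads over the 3 libraries, 65.0% ± 1.44 at 871 sites with 10 to 29, 81.7% ± 2.70 at 143 sites with 30 to 59 and 97.2% ± 0.987 at 49 sites with 60 to under 200. On the other autosomes the shares were 57.3%, 74.0%, 92.0% and 98.1%, higher than on chromosome 19 at 10 to 59 reads. These read classes do not hold like sets of sites. Sites with 10 to 29 reads were 30.1% of the listed far sites on chromosome 19 and 13.1% elsewhere. For 30 to 59 reads it was 4.94% and 1.60%. Whether depth accounts for the gap in methylation was not tested. At 200 or more reads the methylated share was 98.97% ± 0.436 at 5 sites of chromosome 19. On the other autosomes it was 4.71% ± 0.489 at 25 sites, 22 of them high, and 66.5% ± 1.79 without the site of 240822 reads. Their covered far sites together were at 27.9% ± 2.71 with that site and 91.5% ± 0.937 without it. Closer sites showed no steady rise. With a neighbour over 500 bp to 1 kb away, the share was 42.3% ± 8.29 at 1 to 9 reads, 63.8% ± 1.86 at 30 to 59 reads and, lower again, 43.6% ± 0.242 at 200 or more.

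**Figure D5:**
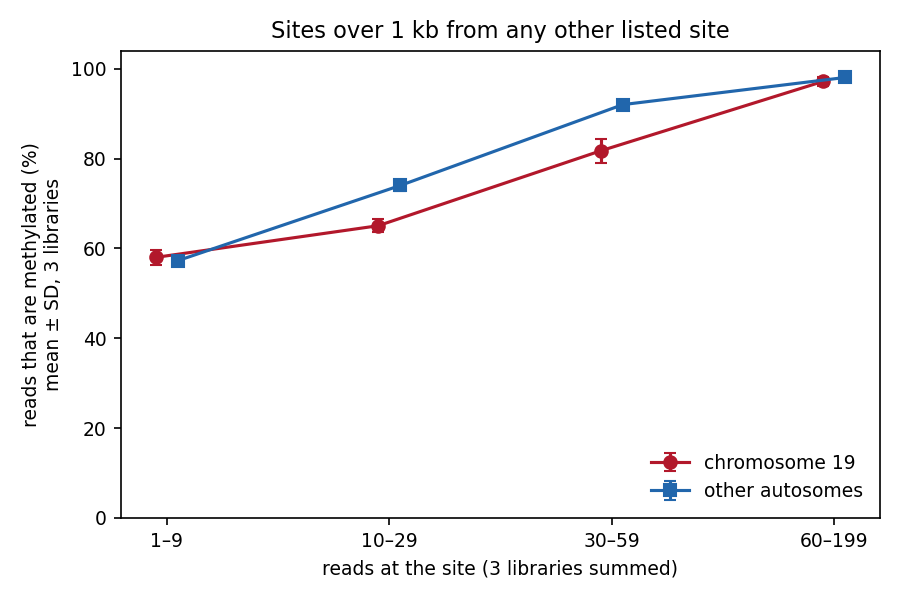
The share of reads that are methylated (%, mean ± SD over 3 libraries) at sites over 1 kb from any other listed site, by the reads at the site summed over the libraries, for sites with fewer than 200. Chromosome 19 (red circles) rises from 58.0% at 1 to 9 reads to 97.2% at 60 to under 200, and the other autosomes (blue squares) from 57.3% to 98.1%.

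The deepest isolated sites had neighbours just over 500 bp away. The sites at 32462842 and 32462328, 514 bp apart, were unmethylated, with 0 of 1068, 0 of 873 and 1 of 1005 reads methylated at the first and 0.207% ± 0.0187 (SD, n = 3) at the second. The site at 5052119 was at 1.30% ± 0.708 over 1500 reads. Of the high ones, the site at 59534734 was methylated in 490 of 492, 449 of 456 and 470 of 474 reads. The site at 27912241 was at 99.5% ± 0.210 over 1235 reads and that at 48062582 at 94.4% ± 0.484 over 1390.

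Crowded sites formed 60 clusters, where each listed site lay within 500 bp of the next and 3 or more were covered, with 214 covered sites in all. Their positions are given from the first to the last covered site. Low sites alone made up 29 clusters (48.3%) and high sites alone 5 (8.33%), 12 held both low and high sites, and 14 were of other kinds. The deepest low clusters, from 9003878 to 9004716, from 4614914 to 4615709 and from 29596467 to 29597312, held 17641, 17633 and 16892 reads and averaged 0.104% ± 0.0520 (SD, n = 3), 0.313% ± 0.132 and 0.0720% ± 0.0707. The third deepest cluster with every site high, from 43515318 to 43515871, averaged 97.6% ± 0.414 over 8177 reads. In the other 2, from 25580404 and from 45305663, the sites themselves ran from 79.4% ± 1.52 to 100% and from 74.2% ± 2.75 to 99.7% ± 0.154.

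A further 3 clusters, with both kinds of site, show how level changed over short distances. The first covered site of the one with most covered sites was the methylated Vldlr promoter site printed above, at 99.8% ± 0.315 (SD, n = 3). The next sites, 206 bp on at 27291699 and at 27292163, were at 41.7% ± 2.67 and 53.7% ± 9.05, and that at 27292265 at 14.2% ± 6.82. The site at 27292385 was at 0.515% ± 0.672 and that at 27292782 at 59.2% ± 3.45. Within the cluster from 41904855 the site at 41905095 was at 0.0767% ± 0.0780 and the next, at 41905390, at 99.7% ± 0.0630, over 3625 and 2718 reads. In that from 53751372 the 3 sites were at 31.8% ± 0.935, 7.42% ± 1.60 and 84.0% ± 1.38. Each step between neighbouring sites named here exceeded the SDs of both sites.

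The 3 libraries were then compared at each site. Fisher's exact test (two-sided, Benjamini-Hochberg adjustment over all 24112 covered sites) called a site at an adjusted p under 0.05 with a difference of at least 20 points. No site of chromosome 19 was called in any pair, where the genome-wide shares called were 0.00415%, 0.00415% and 0% for replicates 1 and 2, 1 and 3, and 2 and 3. At an unadjusted exact p under 0.05, 33, 20 and 24 of its 910 sites differed, against 3.02%, 3% and 2.84% of all covered sites. The chi-square test divided by the excess spread between libraries called 0 sites there too. The median absolute difference per site of chromosome 19 was 0.302, 0.314 and 0.305 points.

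The sites with the smallest p were named by rule. The site at 53751653 was methylated in 101 of 1806, 197 of 2431 and 253 of 2954 reads, or 5.59% (exact Clopper-Pearson 95% interval 4.58% to 6.75%), 8.10% (7.05% to 9.26%) and 8.56% (7.58% to 9.63%), and replicates 1 and 3 differed with an adjusted exact p of 0.187. The site at 5756737 was at 73.5%, 79.9% and 71.9%, and for replicates 2 and 3 the adjusted exact p was 0.443. The site at 45229768 was methylated in 23 of 65, 2 of 36 and 5 of 53 reads, and the adjusted exact p was 0.358 for replicates 1 and 2. These differences did not pass the adjustment.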

How the data were processed

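DREAM was run on 3 libraries of untreated ID8 cells, sequenced on an Illumina HiSeq2500 per the labels. Bowtie2, SAMtools and the builds mm9 and rn4 are named in the submitters' processing notes; the sources used here give neither versions nor whether duplicate reads were collapsed. The authors deposited counts of methylated, unmethylated and total reads per CCCGGG site, not normalized, a raw percent, and an adjusted percent per site that was used only as an alternative. The deposited table of summed libraries was not used.

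Levels are shares of the deposited counts. Matched depth set the reads of each covered site against the median of covered sites on the other autosomes, as a log2 ratio whose median was taken, within a stratum of shorter (16 strata) and longer (9 strata) distance to the neighbouring listed sites, with at least 20 reference sites per stratum, which left out 7 covered sites. The analysis used Python 3.11.15, SciPy 1.17.1, NumPy 2.4.6 and pandas 2.3.3. The code of the pairwise test and of the matching was run on simulated counts. For the matching, recovery of the known factor was required only with all listed sites of well covered strata. It was not required for the covered sites behind the matched depths given here. Intervals, and the limit of 3 reads behind a count of 0, hold for counting error alone. Fisher's exact p-values treat the reads of a site as independent, so they too hold for counting error and not for the spread between libraries. Only the sign-flip test takes the libraries as its units. Nothing in the labels says that the libraries came from separate cultures, so the spread among these 3 samples may be technical.

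Named sites were those with the smallest p, the 3 deepest high and low isolated sites, the 3 deepest high and low clusters and the 3 mixed clusters with most sites. Members, windows and lists were chosen with earlier results of these data known. The planned gene list needed an annotation on mm9, not used here; promoters were placed by spacing instead, a step chosen after the tables were seen. Alternatives were other coverage limits (5, 20 and 50 reads), isolation limits, window layouts and matching rules, the adjusted percent, and leaving out each replicate.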

Additional observations from a re-analysis of the deposited data

How the results depend on the processing

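Of 280 values recomputed under another setting, 13 changed sign and 152 moved by 1 SD or more, or, for counts, by over 1.5 times. The other 115 moved less, or were differences from the other autosomes that kept their sign at any size. Chromosome 19 was first of the 19 autosomes by depth in 12 of 13 alternatives to the matched value (0.45 to 1.10). The exception was the uncapped mean of sites over 1 kb from any other. The levels of all covered and of isolated sites moved with every coverage limit, and the cause was not tested. No paired analysis was possible because all 3 libraries belong to 1 group.

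With at least 5 reads in every library, 27.4% of the sites were covered, the mean level was 50.2% and 46.0% of sites were high. Unmatched depth was -1.09, matched depth 0.53 and the highest window 0.78. Isolated sites were at 71.0%, with windows from 62.7% to 90.5%. With at least 20 reads these values were 15.6%, 38.0%, 34.1%, 0.30, 0.80, 1.01, 65.7%, 57.3% and 83.7%. With at least 50 reads they were 12.1%, 33.2%, 29.4%, 0.84, 0.85, 1.10, 53.4%, 59.4% and 61.4%, where few windows kept 10 isolated sites. The differences from the other autosomes turned to -2.18 points in mean level and -1.56 in the share of high sites at 20 reads. At 50 reads they were -5.34 and -4.58, and that of sites over 1 kb from any other turned to 6.53.

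The authors' adjusted percent gave a mean level of 47.4%, 44.2% high sites and isolated sites at 72.1% (windows 61.6% to 87.7%). An isolation limit of 250 bp gave 54.6% (29.2% to 68.6%). A limit of 1000 bp gave 88.0% (68.6% to 96.5%) and turned the difference of isolated sites to -7.58 points. Windows of 10 Mb ran from 64.4% to 77.7%. Windows shifted by 2.5 Mb ran from 58.5% to 80.7% in level, with a highest matched depth of 1.07.

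Matching also on methylation class gave a matched depth of 0.67 and a highest window of 1.18. Taking all listed sites of well covered strata gave 0.93, with windows from -4.49 to 1.42, and turned the windows from 15, 20, 30 and 60 Mb to -1.31, -0.56, -4.49 and -1.77. Sites over 200 to 500 bp from the nearest gave 1.10 and those over 1 kb from any other 0.92 with the cap, 0.45 without it and 0.96 without the deepest site. These 4 were added after seeing the data. Without a minimum difference, the pairwise Fisher's exact test called 25 sites of the genome. The scaled chi-square test, with the minimum of 20 points kept, called 0.

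Leaving out each replicate in turn gave 21.0% to 21.9% covered, a mean level of 44.9% to 46.7%, and 41.3% to 43.3% high sites. Unmatched depth ran from -0.70 to -0.52, matched depth from 0.57 to 0.61, its highest window from 0.91 (without replicate 3) to 1.39. Isolated sites ran from 68.6% to 71.1%, their highest window from 86.3% to 87.1% and their lowest from 57.7% to 61.3%. The pairwise calls over the genome were 0 to 1.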
